A study of Mus musculus with 6 samples.

Results

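The FOXO transcription factors and 6 of their classical target genes were examined in RNA-seq of cultured mouse neural stem and progenitor cells (NSPCs) under oxidant or antioxidant treatment. The members were the 4 mouse FOXO genes (Foxo1, Foxo3, Foxo4 and Foxo6) and Pik3ip1, Irs2, Sesn3, Bcl2l11, Ccng2 and Bcl6, which were taken from general knowledge of FOXO targets and matched from NCBI gene identifiers by symbol. All 10 were listed among the 17254 genes seen in any library. The analysis used 2 libraries per group. PQ cells received 5 µM paraquat, a redox-cycling herbicide that generates superoxide, and NAC cells received 5 mM N-acetylcysteine, a thiol antioxidant. Control cells were kept for 48 h without either agent, and the study describes its controls as mock-treated. All cells grew in N2 medium with EGF and bFGF, mitogens that signal through PI3K and AKT among other routes. The study's methods describe an immortalized culture from neonatal mice that lack Ink/Arf and call it a mixed population. The labels of control library 1 and PQ library 1 give the genotype as Ink/Ark knockout and the strain as C57BL/6, and those of the remaining 4 libraries give neither.

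The expected counts, which are estimates that share reads between genes, summed to 9849392 and 10040827 in control, 10388731 and 9680436 in PQ, and 10698241 and 9907726 in NAC. Levels are given as FPKM, fragments scaled by transcript length and library total, which allows genes of different length to be set side by side. Control library 1 and PQ library 1 were labelled as Illumina libraries, and the other 4 libraries, including both NAC libraries, as BGISEQ-500. The NAC libraries can therefore be set against only 1 control library of their own labelled protocol. Nothing in the labels says that the libraries of a group came from separate cultures. The study's reporting summary states that the RNA-seq was replicated, without saying whether separate cultures were used. The p-values therefore measure the spread between these libraries, which may be technical.

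FOXO proteins are forkhead transcription factors that are held in the cytoplasm when insulin or growth factor signalling through PI3K and AKT phosphorylates them. When that signal weakens, or under oxidative stress, they enter the nucleus and induce genes for cell cycle arrest, apoptosis, stress resistance and feedback on insulin signalling. In the brain they are known for keeping neural stem cells in a long-lasting, slowly dividing state. Since much of their control acts on the protein, transcript levels of the factors do not measure their activity.

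The cultures carried the markers of neural progenitors. Of 8 progenitor markers, 7 passed the filter of a mean FPKM of at least 1 over the 6 libraries, whereas Hes5 had at most 3 counts in every library. The most abundant was Vim, an intermediate filament gene, at an FPKM of 2170 and 2320 in control, 2550 and 2650 in PQ, and 1360 and 1390 in NAC. The summed FPKM of the progenitor list was 3280 and 3360 in control, 3640 and 3690 in PQ, and 2540 and 2460 in NAC. Vim made up most of each sum, so the order of the groups is that of Vim and not of the list. Fabp7, the next most abundant, was at 800 and 741 in control, 816 and 775 in PQ, and 913 and 803 in NAC. Against control, 3 of the 7 had a log2 fold change above 0 in PQ and 4 in NAC. By edgeR, 1 of the 7 was higher and 2 lower in PQ, and 3 were lower in NAC. Of these 3 calls in either treatment, 1 held in all 13 alternatives, which in NAC was that of Vim, and the others were lost when some single libraries were left out. With limma, 1 of the 3 in NAC was called. Markers of microglia and endothelium were at or near 0, with Aif1, Csf1r, Ptprc, Tmem119, Cldn5, Cdh5 and Kdr at no more than 3 counts in any library. The summed FPKM of these 2 lists stayed at or below 1.15 and 0.58. The fibroblast and pericyte list summed to between 3.57 and 5.55, with Col3a1 its most abundant gene in each library, and Pdgfrb had at most 3 counts. Col3a1, a collagen gene, fell in PQ by -0.90 on the log2 scale (SE 0.14, edgeR adjusted p = 2.2e-04). Dcn, the gene of the matrix proteoglycan decorin, named here after its values were seen, lay below the filter at 5 and 1 counts in control, 24 and 8 in PQ, and 6 and 11 in NAC, with both PQ libraries above both control libraries.

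The summed FPKM of the astrocyte list, led by the glutamate transporter gene Slc1a3, was 110 and 96.6 in control, 78.1 and 79.7 in PQ, and 135 and 134 in NAC. Of its 5 genes, edgeR called 1 higher and 1 lower in PQ and 3 higher in NAC, each against control. In PQ, Slc1a3 fell by -0.48 against control (SE 0.09, edgeR adjusted p = 0.0016) and by -0.77 against NAC (SE 0.09, edgeR adjusted p = 5.9e-06). Both of these calls held in all 13 alternatives. The rise of Slc1a3 in NAC, by 0.29 (SE 0.09, edgeR adjusted p = 0.034), was lost in 6 of 13 alternatives. These were without control library 2 (0.19), PQ library 1 (0.29), PQ library 2 (0.29), NAC library 1 (0.28) or NAC library 2 (0.31), and with the labelled protocol as a covariate (0.33), and the adjusted p ranged from 0.0084 to 0.25 by edgeR and the other tools. Of the others, Aqp4, a water channel gene of astrocytes, rose in NAC by 1.76 on the log2 scale, and Gfap, the astrocyte filament gene, by 1.23. Aqp4 was at an FPKM of 0.79 and 0.70 in control, 0.54 and 0.83 in PQ, and 2.66 and 2.56 in NAC, so it passed the filter through its NAC values, and it was also called in the fit without the filter. Aldh1l1, a folate enzyme gene used as an astrocyte marker, moved differently, at an FPKM of 1.11 and 1.34 in control, 3.28 and 2.36 in PQ, and 1.11 and 0.68 in NAC. It rose in PQ by 1.17 (SE 0.26, edgeR adjusted p = 0.0035), and gave 0.93 without PQ library 1 (edgeR adjusted p = 0.091, from 1.3e-05 to 0.091 over the alternatives). The oligodendroglial list, led by Olig1, summed to 652 and 753 in control, 768 and 666 in PQ, and 816 and 926 in NAC, and Sox10 had at most 3 counts throughout. In NAC, 3 of its 4 genes past the filter were called higher, among them Olig1 and Pdgfra, genes of oligodendrocyte precursors, at log2 fold changes of 0.41 and 0.40. Both calls were lost without control library 1 (0.25 and 0.33) or NAC library 2 (0.27 and 0.29), and with the labelled protocol as a covariate (0.37 for each), and that of Olig1 also with either limma fit. Olig2, the other gene past the filter, gave 0.07 in NAC and was not called. Cspg4, another precursor gene named here after its values were seen, lay below the filter and ran the other way in NAC. Its FPKM was 0.91 and 0.92 in control, 0.92 and 0.95 in PQ, and 0.67 and 0.76 in NAC. Of the neuron list only Map2 passed the filter, at 35.6 and 34.2 in control, 32.6 and 34.0 in PQ, and 64.9 and 58.0 in NAC, while Rbfox3 was not listed. Tubb3, a neuronal tubulin gene named here after its values were seen, lay below the filter and ran the other way, at 2.38 and 1.3 in control, 0.72 and 0.47 in PQ, and 0.32 and 0.44 in NAC. In bulk RNA, fewer cells of a type and less RNA per cell cannot be told apart, and the part of these shifts in the values of the FOXO genes was not tested. Cdkn2a, the gene of the Ink/Arf locus, had between 120 and 162 counts in every library, and its neighbour Cdkn2b had between 120 and 179. A count over the whole gene does not show whether the reads fall in the deleted part, so it checks nothing about the labelled genotype.

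PQ and NAC each changed a few of the members, and Ccng2 was lower in both. Of the 10 members, 9 passed the filter and Foxo6 did not. In PQ against control, Bcl2l11 was higher and Ccng2 lower, that is 1 of 9 in each direction. By edgeR, 9.76% of the 11717 genes tested passed the adjusted threshold of 0.05 as higher and 9.45% as lower. These 2 of 9 stand beside 19.2% of all genes called in either direction, so the share of members was near the background. In NAC against control, Foxo4, Pik3ip1 and Irs2 were higher and Ccng2 lower, which is 4 of 9 beside 18.7% of all genes in either direction, 9.01% higher and 9.64% lower. In PQ against NAC, Foxo3 and Bcl2l11 were higher and Foxo1, Foxo4 and Irs2 lower, which is 5 of 9 beside 31.6% of all genes, 16.0% higher and 15.7% lower. The median log2 fold change of the 9 members was -0.01, 0.13 and -0.18 in the 3 comparisons in that order, and that of all genes tested was 0.00 in each. Without PQ library 1, 866 genes and 0 members were called in PQ against control, and without PQ library 2, 1 member was. In NAC against control, 1286 genes were called without NAC library 1, and 1427 genes and 1 member without NAC library 2. In PQ against NAC, 2343 genes were called without PQ library 1 and 2407 genes and 3 members without NAC library 1, while 2 members were called without PQ library 2 and 3 without NAC library 2. The comparisons with control share the same control libraries, and the members were not tested as a list.

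**Figure D1:**
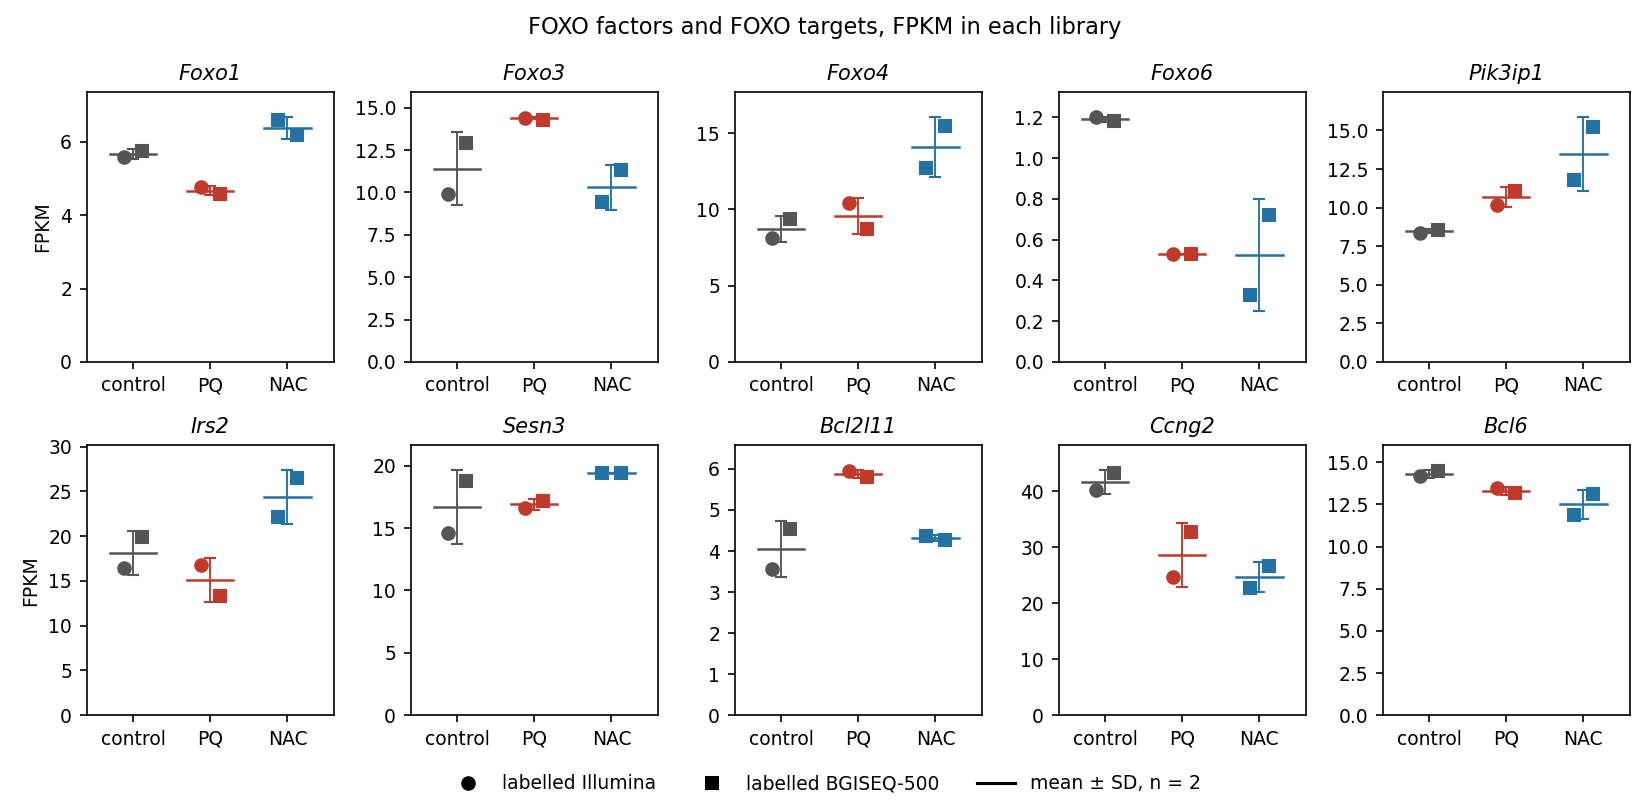
FPKM (y axis, from 0) of each FOXO factor and target in the 2 control, 2 PQ and 2 NAC libraries (x axis), with circles for libraries labelled Illumina, squares for those labelled BGISEQ-500, and lines and bars for the mean ± SD of 2 libraries. Ccng2 lies below both control values in all PQ and NAC libraries, and Foxo4 and Pik3ip1 have their highest values in NAC.

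Changes are given as log2 fold changes with the standard error (SE). Foxo1 encodes the factor that controls much of the hepatic and pancreatic response to insulin, and it is also expressed in neural progenitors. Its FPKM was 5.58 and 5.76 in control, 4.76 and 4.59 in PQ, and 6.61 and 6.18 in NAC, from 249 to 396 counts per library. The groups did not overlap, and the order was PQ, control, NAC from low to high. The separation from control was small, with a log2 fold change of -0.30 in PQ (SE 0.12, edgeR adjusted p = 0.089) and 0.13 in NAC (SE 0.12, edgeR adjusted p = 0.50). PQ was lower than NAC by a log2 fold change of -0.43 (SE 0.12, edgeR adjusted p = 0.0097). That call was lost when either PQ library or NAC library 1 was left out. The log2 fold change was then -0.44 without PQ library 1 (edgeR adjusted p = 0.058), -0.42 without PQ library 2 (edgeR adjusted p = 0.062) and -0.37 without NAC library 1 (edgeR adjusted p = 0.10), and the adjusted p ranged from 0.0054 to 0.10 over the 13 alternatives tried. An annotated processed transcript, RP24-337A16.1, overlaps Foxo1 on the opposite strand. The study's methods name a kit that keeps strand information for the RNA-seq as a whole, whereas the labels of 4 libraries name another protocol. Neither says whether counting used the strand, so reads of such a pair cannot be told apart here.

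Foxo3, the family member most studied in neural stem cell maintenance and in the response to oxidants, had an FPKM of 9.91 and 12.9 in control, 14.4 and 14.3 in PQ, and 9.42 and 11.3 in NAC. Both PQ libraries lay above the others, while control and NAC overlapped. The control libraries were further apart from each other than the PQ libraries were, with a mean ± SD of 11.4 ± 2.15 (n = 2) in control against 14.4 ± 0.0778 (n = 2) in PQ. PQ exceeded NAC by a log2 fold change of 0.50 (SE 0.13, edgeR adjusted p = 0.0083), which missed the threshold without NAC library 1 at 0.38 (edgeR adjusted p = 0.12, from 0.0012 to 0.12 over the alternatives). Against control, PQ gave 0.30 (SE 0.13, edgeR adjusted p = 0.12), which was not called, and the difference depended on which control library was read. In the libraries labelled Illumina the log2 difference was 0.49, and in those labelled BGISEQ-500 it was 0.14, with 1 library on each side and no test. In 1 of the 13 alternatives, without control library 2, PQ was called higher at 0.50 (edgeR adjusted p = 0.017, from 0.017 to 0.60 over the alternatives).

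Foxo4 is an X-linked FOXO gene whose product responds to oxidants through JNK. Its FPKM was 8.12 and 9.35 in control, 10.4 and 8.72 in PQ, and 12.7 and 15.5 in NAC. Both NAC libraries lay above all 4 others, and control and PQ overlapped. NAC raised it by a log2 fold change of 0.64 (SE 0.13, edgeR adjusted p = 0.0019), a 1.56-fold change, and the difference from the 1 control library labelled BGISEQ-500 was 0.54. Without NAC library 2 the log2 fold change was 0.50 (edgeR adjusted p = 0.051, from 2.2e-05 to 0.051 over the alternatives). PQ was lower than NAC by -0.54 on the log2 scale (SE 0.13, edgeR adjusted p = 0.0041), a call lost without PQ library 2 at -0.43 (edgeR adjusted p = 0.067) and without NAC library 2 at -0.39 (edgeR adjusted p = 0.085, from 2.9e-04 to 0.085 over the alternatives). PQ against control gave 0.10 (SE 0.14), with 0.31 in the libraries labelled Illumina and -0.10 in those labelled BGISEQ-500.

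Foxo6, a member known mainly from the nervous system whose protein shuttles less than those of its relatives, was close to the detection limit. Its expected counts were 30 and 30 in control, 14 and 13 in PQ, and 9 and 18 in NAC, which is an FPKM of 1.2 and 1.18, 0.53 and 0.53, and 0.33 and 0.72. All PQ and NAC libraries lay below both control libraries. In the fit over every gene with a count, where 15.2% of genes were called in PQ and 15.3% in NAC against control, its log2 fold change was -1.19 in PQ (SE 0.40, edgeR adjusted p = 0.022) and -1.24 in NAC (SE 0.40, edgeR adjusted p = 0.016). At these counts, the calls were lost in 7 of 12 alternatives for each comparison, with an adjusted p of up to 0.23 in PQ and up to 0.37 in NAC. In PQ the call was lost when any 1 control or PQ library was left out, with log2 fold changes from -1.22 to -1.18, and in NAC without control library 1 (-1.22), control library 2 (-1.26) or NAC library 1 (-0.78), and also with the labelled protocol as a covariate at -1.23 (edgeR adjusted p = 0.063). Without NAC library 2 it was -1.87, since the NAC libraries were far apart. The calls in PQ and in NAC were also lost with DESeq2 and with either limma fit. With limma on log2(FPKM + 1), the log2 fold change was -0.52 in PQ and -0.53 in NAC.

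The balance between the factors differed between groups. By FPKM, the order in all control and PQ libraries was Foxo3, Foxo4, Foxo1 and Foxo6 from high to low, and in both NAC libraries Foxo4 stood above Foxo3. The ratio of Foxo3 to Foxo4 FPKM was 1.22 and 1.39 in control, 1.39 and 1.64 in PQ, and 0.744 and 0.729 in NAC. The ratios of control and PQ touched, at 1.39, while both NAC ratios lay below 1. Foxo3 made up 39.9% and 44.3% of the FPKM of the 4 genes in control, 47.9% and 50.9% in PQ, and 32.5% and 33.5% in NAC. Their sum was 24.8 and 29.2 in control, 30.1 and 28.2 in PQ, and 29.0 and 33.7 in NAC, so the groups overlapped in the total.

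**Figure D2:**
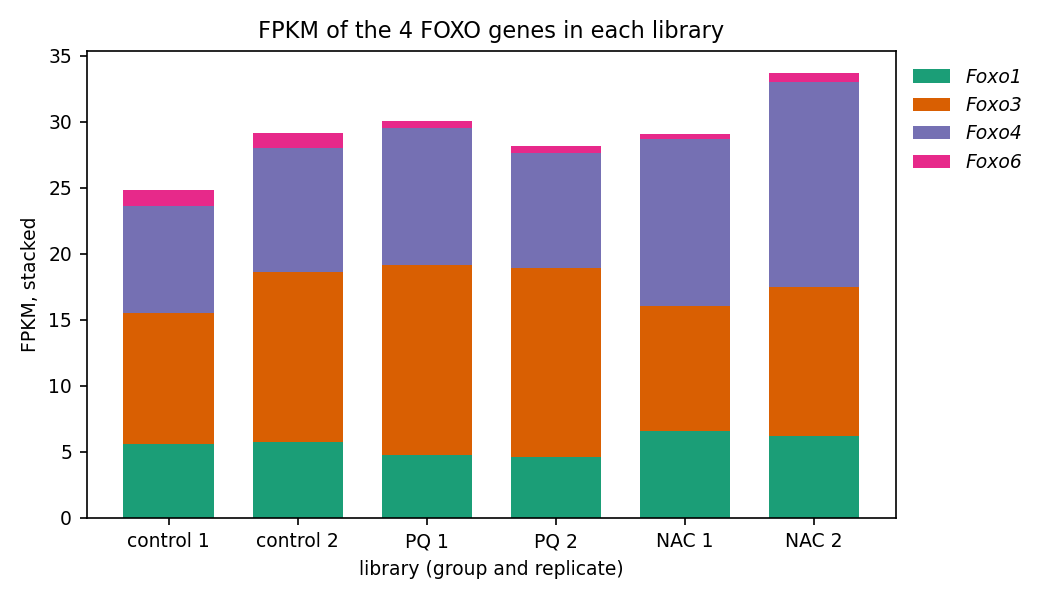
Stacked FPKM (y axis, from 0) of Foxo1, Foxo3, Foxo4 and Foxo6 in each library (x axis, group and replicate). The total ranges from 24.8 to 33.7, and the Foxo4 segment is taller than the Foxo3 segment in the 2 NAC libraries.

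The targets were taken in order of their place in the pathway, first those that feed back on insulin and PI3K signalling, then those of cell death and the cell cycle. For Irs2, Bcl2l11 and Ccng2, RefSeq promoters on GRCm38.p6 held a FOXO motif. The motifs searched, on both strands, were GTAAACA, the core bound by FOXO proteins, and CAAAACAA, the insulin response sequence, in windows of 250 bases before to 50 after each transcription start site. GTAAACA occurred in 3.65% and CAAAACAA in 2.51% of 32851 mouse promoters of that length. Promoters were found for 8 of the 10 members, and not for Foxo4 and Foxo6. The bases before the start site are shown for Irs2 and Bcl2l11, 5′ to 3′ on the gene strand with the motif in capitals, because both genes passed the threshold in at least 1 comparison. Those of Ccng2 are not shown, since all 250 of them lie in the leader of another annotated transcript of that gene.
Irs2, chr8:11008930-11009179, minus strand: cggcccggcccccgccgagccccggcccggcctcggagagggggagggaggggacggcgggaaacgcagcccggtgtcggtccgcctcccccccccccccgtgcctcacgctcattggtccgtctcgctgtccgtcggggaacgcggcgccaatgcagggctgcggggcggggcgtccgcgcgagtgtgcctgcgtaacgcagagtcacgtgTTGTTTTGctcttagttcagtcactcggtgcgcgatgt
Bcl2l11, chr2:128125788-128126037, plus strand: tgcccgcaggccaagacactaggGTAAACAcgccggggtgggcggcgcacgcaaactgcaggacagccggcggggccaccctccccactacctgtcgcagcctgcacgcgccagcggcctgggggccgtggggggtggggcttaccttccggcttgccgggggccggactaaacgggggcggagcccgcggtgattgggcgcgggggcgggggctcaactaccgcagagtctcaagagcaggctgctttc
Counted from the start site, the match lies from -38 to -31 in Irs2, where the printed strand carries the reverse complement TTGTTTTG, from -227 to -221 in Bcl2l11 and from -16 to -9 in Ccng2, which is in that leader. Bcl2l11 has a further promoter in the table that holds neither motif. A match describes these letters and is not evidence of binding, and its absence from a window says nothing about the factor. The genes with a match moved in different directions, as their values show.

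Pik3ip1 encodes a transmembrane inhibitor of the PI3K catalytic subunit. Its FPKM was 8.38 and 8.57 in control, 10.2 and 11.1 in PQ, and 11.8 and 15.2 in NAC. The groups did not overlap, and every treated library lay above both control libraries. NAC raised it by a log2 fold change of 0.62 (SE 0.15, edgeR adjusted p = 0.0049), and by 0.60 against the control library labelled BGISEQ-500. Without NAC library 2 it was 0.44 (edgeR adjusted p = 0.11, from 3.1e-04 to 0.11 over the alternatives). PQ gave 0.30 (SE 0.15, edgeR adjusted p = 0.17), with 0.23 and 0.37 within the libraries labelled Illumina and BGISEQ-500. PQ against NAC gave -0.32 (SE 0.14, edgeR adjusted p = 0.097), which was not called. That difference ranged from -0.48 to -0.14 over the 13 alternatives and passed the threshold in 1 of them. An annotated lincRNA gene, Gm12592, overlaps Pik3ip1 on the opposite strand, and the limit on strand given for Foxo1 applies.

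Irs2 encodes an adaptor that couples the insulin and IGF1 receptors to PI3K and is induced by FOXO proteins when insulin is low. Its FPKM was 16.4 and 19.9 in control, 16.8 and 13.3 in PQ, and 22.2 and 26.5 in NAC. NAC lay above all other libraries, and PQ overlapped control. PQ was lower than NAC by a log2 fold change of -0.67 (SE 0.12, edgeR adjusted p = 3.6e-04), which passed the threshold in all 13 alternatives, from -0.84 to -0.53. NAC was higher than control by 0.38 (SE 0.12, edgeR adjusted p = 0.035). That difference was 0.26 without control library 1 (edgeR adjusted p = 0.20) and 0.26 without NAC library 2 (edgeR adjusted p = 0.30, from 0.0053 to 0.30 over the alternatives). It also missed the threshold with the labelled protocol as a covariate, with DESeq2 and with limma, in 6 of 13 alternatives altogether. PQ against control gave -0.29 (SE 0.13, edgeR adjusted p = 0.11), which was not called. There, the pair labelled Illumina differed by -0.01 and the pair labelled BGISEQ-500 by -0.58, and in 1 of the 13 alternatives, without control library 1, the log2 fold change was -0.42 (edgeR adjusted p = 0.030, from 0.030 to 0.59 over the alternatives). The lincRNA gene 9530052E02Rik overlaps Irs2 on the opposite strand, and the same limit on strand applies.

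Sesn3 encodes a sestrin, a stress-induced protein that restrains mTORC1. Its FPKM was 14.6 and 18.8 in control, 16.6 and 17.2 in PQ, and 19.4 and 19.4 in NAC. The PQ values fell between the control values, and both NAC values lay just above the higher control value. None of the comparisons passed the threshold, with log2 fold changes of -0.01 in PQ and 0.17 in NAC against control and -0.18 between PQ and NAC, each with a standard error of 0.12 or 0.13. The sign in PQ against control followed the control library used, at 0.14 in the libraries labelled Illumina and -0.13 in those labelled BGISEQ-500.

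Bcl2l11 encodes BIM, a BH3-only protein that promotes apoptosis. Its FPKM was 3.57 and 4.54 in control, 5.95 and 5.81 in PQ, and 4.36 and 4.26 in NAC. Both PQ libraries were the highest, and the NAC values fell between the control values. PQ raised it by a log2 fold change of 0.51 over control (SE 0.14, edgeR adjusted p = 0.015), a 1.43-fold change, and by 0.45 over NAC (SE 0.14, edgeR adjusted p = 0.018). The difference from control was 0.69 in the libraries labelled Illumina and 0.35 in those labelled BGISEQ-500, and it was 0.35 without control library 1 (edgeR adjusted p = 0.15), 0.52 without PQ library 1 (edgeR adjusted p = 0.095) and 0.51 without PQ library 2 (edgeR adjusted p = 0.069, from 0.0031 to 0.15 over the alternatives). Against NAC, the call was lost in 6 of 13 alternatives. These were without PQ library 1 (0.46), PQ library 2 (0.45), NAC library 1 (0.47) or NAC library 2 (0.44), with an adjusted p of up to 0.092 by edgeR, and with either limma fit (0.37 and 0.44, adjusted p = 0.057 by limma for each). The expected counts of Bcl2l11 were fractional in all 6 libraries, which means that part of its reads was divided with another locus, and its level is less certain than those of the other members, whose counts were whole.

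Ccng2 encodes cyclin G2, an unconventional cyclin that is high in arrested cells and is a standard reporter of FOXO activity. It was the most abundant member, with an FPKM of 40.2 and 43.2 in control, 24.6 and 32.7 in PQ, and 22.7 and 26.6 in NAC. All 4 treated libraries lay below both control libraries, and PQ and NAC overlapped. NAC lowered it by a log2 fold change of -0.81 (SE 0.13, edgeR adjusted p = 1.3e-04), or 1.75-fold, and this passed the threshold in all 13 alternatives, from -0.94 to -0.70. PQ lowered it by -0.57 (SE 0.12, edgeR adjusted p = 0.0033), or 1.48-fold, with -0.76 in the libraries labelled Illumina and -0.41 in those labelled BGISEQ-500. Without PQ library 1 the difference was -0.36 (edgeR adjusted p = 0.12, from 5.1e-06 to 0.12 over the alternatives). PQ against NAC gave 0.24 (SE 0.13, edgeR adjusted p = 0.17), and 0.44 without PQ library 1 (edgeR adjusted p = 0.025, from 0.025 to 1 over the alternatives).

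Bcl6, a transcriptional repressor that FOXO proteins induce in lymphocytes and that promotes neurogenesis in cortical progenitors, kept to a narrow range. Its FPKM was 14.2 and 14.5 in control, 13.5 and 13.2 in PQ, and 11.9 and 13.1 in NAC. The groups did not overlap, in the order control, PQ, NAC from high to low, but the steps were small. The log2 fold change was -0.13 in PQ (SE 0.11, edgeR adjusted p = 0.45) and -0.24 in NAC (SE 0.11, edgeR adjusted p = 0.13) against control. The 6 targets thus had no common direction in PQ or in NAC. Summed over the 6, the FPKM was 97.3 and 110 in control, 87.7 and 93.3 in PQ, and 92.4 and 105 in NAC, and without Ccng2 it was 57.1 and 66.3, 63.1 and 60.6, and 69.7 and 78.5.

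**Figure D3:**
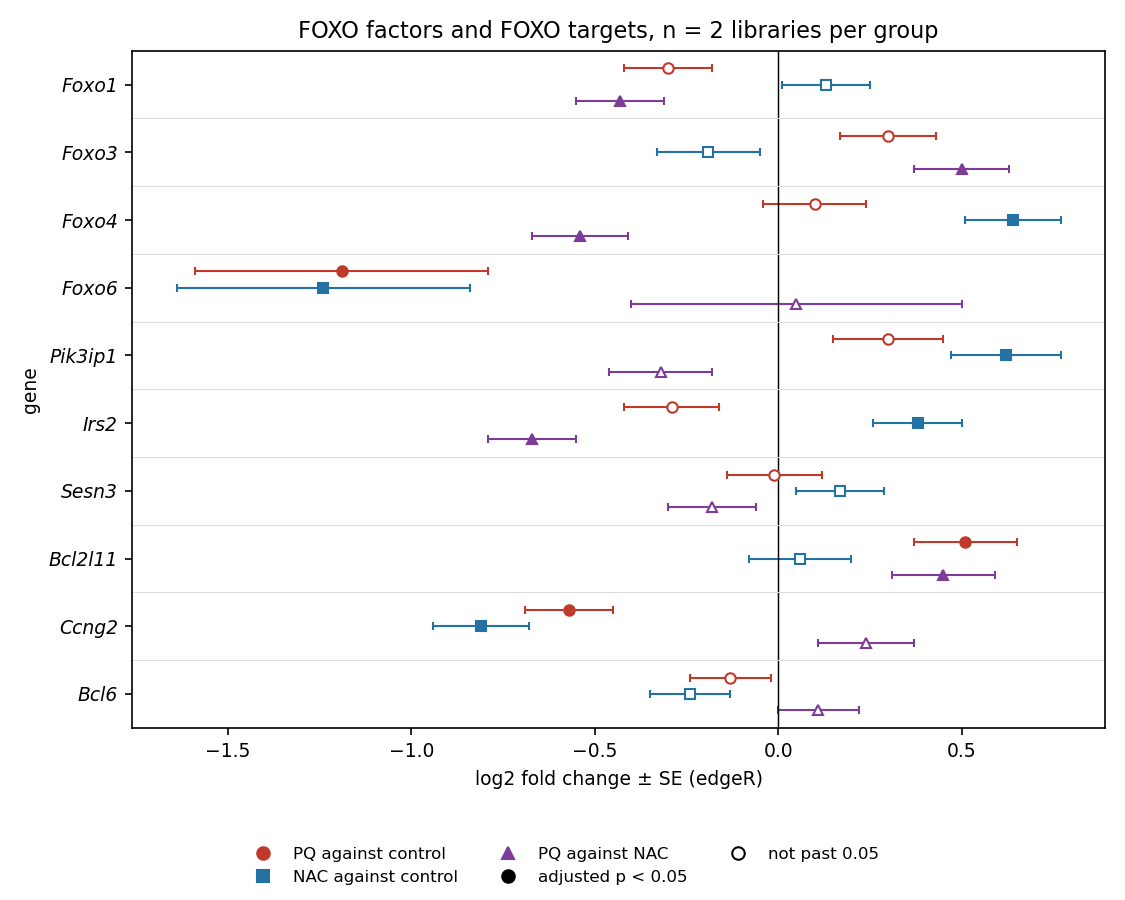
Log2 fold change (x axis) of each FOXO factor and target (y axis) for PQ against control (circles), NAC against control (squares) and PQ against NAC (triangles), with bars of 1 standard error from edgeR on 2 libraries per group and filled symbols for an adjusted p under 0.05. Foxo6 is from the fit over every gene with a count, and its bars are the widest. Ccng2 is below 0 for both treatments, Bcl2l11 is called in PQ and Foxo4, Pik3ip1 and Irs2 in NAC.

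A wider list of 32 FOXO targets gave the members their setting. Of these, 29 were listed in some library and 25 passed the filter. G6pc, Igfbp1 and Pdk4, metabolic targets best known from liver and muscle, were not listed in any library, and Fasl and Gnmt had at most 3 counts in every library. Gnmt, a glycine methyltransferase gene, had 1 and 2 counts in control, 3 and 1 in PQ, and 2 and 2 in NAC, so a difference was not detectable at this depth. By qRT-PCR and western blot, which are not part of these data, the study reports that PQ induced Gnmt and that NAC suppressed it. In PQ against control, 7 of 25 were higher and 3 lower (40.0% called, beside 19.2% of all genes), with a median log2 fold change of 0.10. In NAC against control, 3 were higher and 5 lower (32.0%, beside 18.7%), with a median of -0.05. In PQ against NAC, 7 were higher and 5 lower (48.0%, beside 31.6%), with a median of 0.06. These counts depended on single libraries. In PQ against control, 3 were higher and 2 lower without PQ library 1, 4 higher without control library 1 and 5 lower without control library 2. In NAC against control, 5 were higher without control library 2, 2 higher without NAC library 2 and 3 lower without NAC library 1. Between PQ and NAC, 1 was lower in PQ without PQ library 1, and 3 were lower without PQ library 2, without NAC library 1, with DESeq2 and with the labelled protocol as a covariate. The largest log2 fold changes of PQ against NAC were in Cdkn1a (2.15), Bnip3 (0.89), Tnfsf10 (0.76) and Cited2 (0.70) among the higher, and Txnip (-3.20), Gadd45a (-0.60), Sesn1 (-0.56) and Rbl2 (-0.34) among the lower. Of these 8, Tnfsf10 was lost without PQ library 1 (0.65) or NAC library 2 (0.67) and with either limma fit, Gadd45a without PQ library 1 (-0.57), with DESeq2 and with either limma fit, Sesn1 without PQ library 1 (-0.45), and Rbl2 without PQ library 1 (-0.31), PQ library 2 (-0.37) or NAC library 1 (-0.26), and with the labelled protocol as a covariate (-0.30). Cited2 encodes a transcriptional coregulator, Gadd45a and Sesn1 stress-response proteins, and Rbl2 the pocket protein p130.

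Cdkn1a and Btg1 were among the targets higher in PQ. Cdkn1a, which encodes the cyclin-dependent kinase inhibitor p21 and is also a p53 target, had an FPKM of 243 and 242 in control, 576 and 536 in PQ, and 118 and 136 in NAC, and the groups were far apart. It rose in PQ by 1.17 on the log2 scale (SE 0.09, edgeR adjusted p = 2.8e-07) and fell in NAC by -0.98 (SE 0.09, edgeR adjusted p = 6.1e-07), calls that held in all 13 alternatives. Btg1, an antiproliferative gene, was at 24.2 and 25.7 in control, 36.6 and 37.1 in PQ, and 28.5 and 29.0 in NAC, with a log2 fold change of 0.54 in PQ (SE 0.09, edgeR adjusted p = 4.8e-04). Both genes kept their call in PQ in all 13 alternatives. Tnfsf10, the death ligand TRAIL, was higher in PQ by 0.69 (SE 0.21, edgeR adjusted p = 0.027), from 51 to 111 counts per library, and missed the threshold without control library 1 at 0.51 (edgeR adjusted p = 0.19) and without PQ library 1 at 0.58 (edgeR adjusted p = 0.21, from 0.0085 to 0.21 over the alternatives). Its call was also lost with DESeq2 and with either limma fit.

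Txnip, whose product binds thioredoxin and limits glucose uptake, moved most among these targets. Its FPKM was 6.69 and 4.54 in control, 0.75 and 0.81 in PQ, and 6.99 and 7.66 in NAC. Both PQ libraries were far below the rest, at 22 counts each against 128 to 213. In PQ against control it changed by -2.87 on the log2 scale (SE 0.24, edgeR adjusted p = 5.1e-07), from -3.13 to -1.87 over the alternatives. Ccnd2, a cyclin gene that FOXO proteins repress, was lower in both treatments, by -0.40 in PQ (SE 0.09, edgeR adjusted p = 0.0036) and -0.37 in NAC (SE 0.09, edgeR adjusted p = 0.0054). The call of Ccnd2 was lost in PQ without PQ library 1 at -0.37 (edgeR adjusted p = 0.069) and in NAC without NAC library 1 at -0.32 (edgeR adjusted p = 0.086), the highest adjusted p over the alternatives in each case.

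Genes of protein turnover and autophagy formed another part of the list. Fbxo32, the muscle atrophy ubiquitin ligase atrogin-1, was low, at an FPKM of 1.37 and 1.28 in control, 3.18 and 2.21 in PQ, and 2.31 and 2.6 in NAC. All treated libraries lay above control, and on the log2 scale Fbxo32 rose by 1.01 in PQ (SE 0.18, edgeR adjusted p = 7.4e-04) and 0.84 in NAC (SE 0.18, edgeR adjusted p = 0.0028). Map1lc3b, which encodes the autophagosome protein LC3B, was higher in NAC by 0.59 (SE 0.10, edgeR adjusted p = 2.7e-04), with FPKM values of 50.4 and 48.5 against 30.5 and 33.1 in control. Bnip3, a mitophagy receptor gene that also responds to hypoxia, was at 459 and 434 in control, 353 and 446 in PQ, and 192 and 246 in NAC, and fell in NAC by -1.07 on the log2 scale (SE 0.12, edgeR adjusted p = 4.2e-06). Eif4ebp1, a brake on translation, fell in both treatments, by -0.67 in PQ (SE 0.13, edgeR adjusted p = 0.0015) and -1.31 in NAC (SE 0.14, edgeR adjusted p = 1.6e-06), although its control libraries were far apart at 189 and 137. In PQ, Eif4ebp1 ranged from -0.89 to -0.41 over the alternatives and stayed past the threshold, with -0.41 when control library 1 was left out. Gabarapl1, another gene of the LC3 family, was higher in NAC by 0.41 (SE 0.11, edgeR adjusted p = 0.013), and missed the threshold without control library 1 at 0.34 (edgeR adjusted p = 0.076) and without NAC library 2 at 0.36 (edgeR adjusted p = 0.11, from 0.0040 to 0.11 over the alternatives). In PQ, Map1lc3b and Gabarapl1 were called higher too, by 0.31 and 0.41 (edgeR adjusted p = 0.037 and 0.014), values outside the naming rule that were chosen after being seen. Map1lc3b lost this call in 7 of 13 alternatives, with DESeq2, with only the 4 libraries compared, without control library 1 (0.26), PQ library 1 (0.30), PQ library 2 (0.32) or NAC library 2 (0.31) and with the labelled protocol as a covariate (0.31), with an adjusted p of 0.035 to 0.19 over the alternatives, and Gabarapl1 without control library 1 (0.34) or PQ library 1 (0.29), with an adjusted p of 0.0046 to 0.23. The counts of Fbxo32, Tnfsf10 and Sod2 were fractional in all 6 libraries. The antioxidant targets Sod2 and Cat, named here after their values were seen, gave log2 fold changes of -0.01 and 0.16 in PQ (standard errors 0.10 and 0.09), neither past the threshold.

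**Figure D4:**
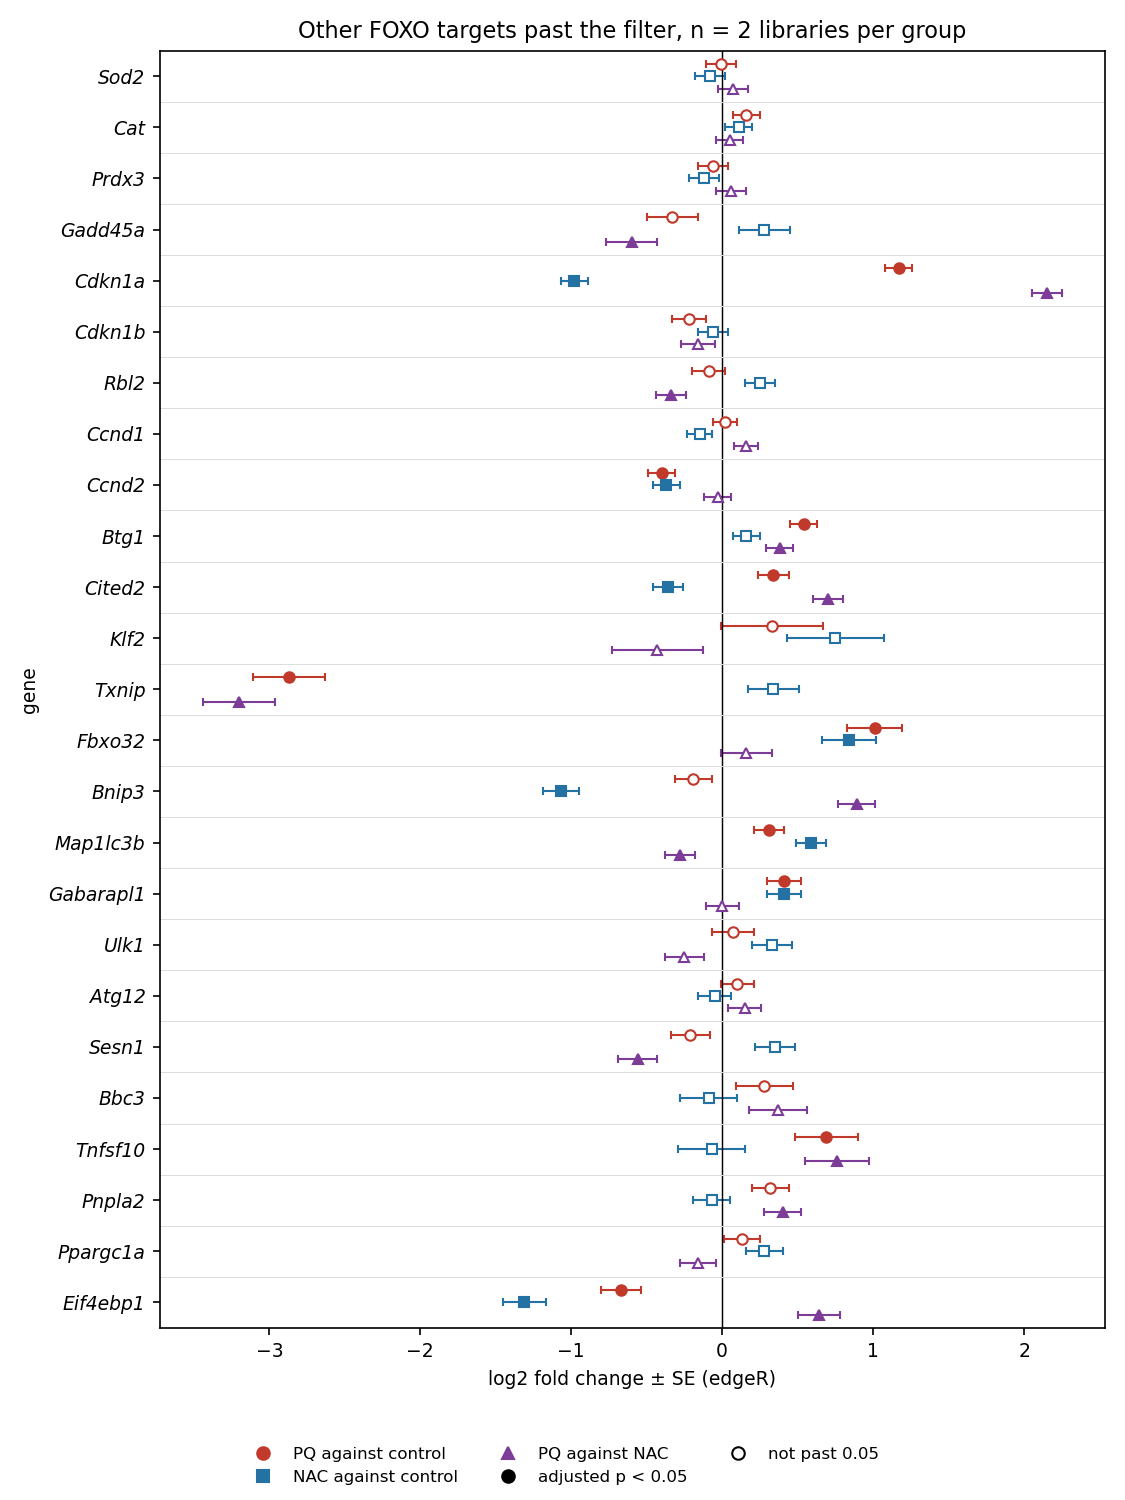
Log2 fold change (x axis) of the 25 other FOXO targets that passed the filter (y axis) for the 3 comparisons, with bars of 1 standard error from edgeR on 2 libraries per group and filled symbols for an adjusted p under 0.05. Cdkn1a and Txnip lie furthest from 0 in PQ, in opposite directions, and Eif4ebp1 and Bnip3 lie lowest in NAC.

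The kinases and lipid enzymes that act upstream of FOXO proteins were read from a list of 22 insulin, PI3K and AKT genes, of which 20 passed the filter. In PQ against control 3 were higher (15.0% called, beside 19.2% of all genes), and in NAC against control 4 were higher and 4 lower (40.0%, beside 18.7%). In PQ against NAC, 5 were higher and 7 lower (60.0%, beside 31.6%). By edgeR, at most 1 was higher in PQ against control without control library 1, PQ library 1 or PQ library 2, and 1 was lower in NAC against control without NAC library 2. For PQ against NAC, 4 were lower without PQ library 2. The median log2 fold change was -0.03, 0.15 and -0.15 in that order, beside 0.00 over all genes.

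In NAC, Irs1, which encodes the sister adaptor of IRS2, had an FPKM of 17.4 and 18.8 against 10.7 and 11.6 in control and 9.95 and 9.75 in PQ. Irs1 was thus higher in NAC by 0.66 (SE 0.09, edgeR adjusted p = 5.5e-05). Sgk3 and Sgk1 encode kinases that phosphorylate FOXO proteins at AKT sites, and they moved in opposite directions. Sgk3 was at 12.3 and 10.8 in NAC against 6.25 and 6.56 in control, and rose by 0.80 (SE 0.11, edgeR adjusted p = 4.2e-05). Sgk1 was at 31.7 and 29.8 in NAC against 48.0 and 46.4 in control, and fell by 0.65 (SE 0.10, edgeR adjusted p = 1.1e-04). Akt2 rose by 0.43 (SE 0.09, edgeR adjusted p = 0.0021), and the calls of these 4 genes held in all 13 alternatives. Pik3cb, a catalytic subunit gene, fell by 0.45 (SE 0.11, edgeR adjusted p = 0.0076), and gave -0.37 without NAC library 2 (edgeR adjusted p = 0.10, from 0.0026 to 0.10 over the alternatives). The expected counts of Sgk3, Pik3ca, Pik3cb and Pik3r1 were fractional in all 6 libraries and those of Sgk1 in 3, which makes their levels less certain. Further calls, Pik3ca at 0.30 and Pik3r3 at -0.37, were lost in 7 and 10 of the 13 alternatives. Both were lost without control library 2 (0.25 and -0.29), PQ library 1 (0.29 and -0.37), PQ library 2 (0.30 and -0.37), NAC library 1 (0.28 and -0.42) or NAC library 2 (0.32 and -0.33), with only the 4 libraries compared, and with the labelled protocol as a covariate (0.30 and -0.42), and Pik3r3 also with DESeq2 and either limma fit.

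Set against NAC, PQ was higher in Sgk1 by 0.76, in Pik3r3 by 0.75 and in Pik3cb by 0.72, and lower in Sgk3 by -0.87, in Irs1 by -0.86 and in Akt2 by -0.47. These 6 calls held in every alternative. Phlpp2, which encodes a phosphatase of AKT, was lower by -0.51 (SE 0.13, edgeR adjusted p = 0.0066), and gave -0.45 without PQ library 2 (edgeR adjusted p = 0.065) and -0.39 without NAC library 2 (edgeR adjusted p = 0.096, from 0.0019 to 0.096 over the alternatives).

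In PQ, the genes called included Pik3r3 and Pik3r1, which encode regulatory subunits of PI3K. Their log2 fold changes were 0.38 and 0.29, with standard errors of 0.12 and 0.09 and adjusted p of 0.030 and 0.031 by edgeR. Both calls were lost without control library 1 (0.30 and 0.24), PQ library 1 (0.40 and 0.31) or PQ library 2 (0.35 and 0.27), Pik3r1 also with the labelled protocol as a covariate (0.29) and Pik3r3 with DESeq2 and either limma fit, and the adjusted p reached 0.16 for each over the alternatives. Akt1, the most abundant gene of the list, was at 96.8 and 107 in control, 90.4 and 88.2 in PQ, and 91.6 and 99.0 in NAC.

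Other regulators of FOXO proteins, 22 genes for deacetylases, acetyltransferases, ubiquitin ligases, stress kinases and 14-3-3 proteins, changed about as often as genes in general. Of the 21 that passed the filter, 4 were called in PQ against control, 2 in each direction (19.0%, beside 19.2% of all genes), 5 in NAC (23.8%, beside 18.7%) and 7 in PQ against NAC (33.3%, beside 31.6%). In NAC, 4 of the 5 were lower. With any 1 library left out, edgeR called at most 1 of the 21 lower in PQ, and 1 was higher without control library 2, PQ library 1 or PQ library 2. At most 1 was lower in PQ with only the 4 libraries compared, with DESeq2, with either limma fit or with the labelled protocol as a covariate, which also left 1 higher. In NAC, 2 were lower without control library 1 or NAC library 2, with either limma fit too, while the count of higher genes was 2 without control library 2 or without the filter and fell below 1 without NAC library 1, with DESeq2 or with the labelled protocol as a covariate. Between PQ and NAC, 4 were higher and 3 lower in PQ, with 1 lower without PQ library 1 and 2 higher without NAC library 2. Mdm2, which encodes a ubiquitin ligase of p53 and of FOXO proteins, was at an FPKM of 45.8 and 39.8 in control, 70.2 and 67.6 in PQ, and 32.7 and 32.1 in NAC. The groups did not overlap, and the log2 fold change was 0.66 in PQ (SE 0.10, edgeR adjusted p = 1.4e-04) and -0.45 in NAC (SE 0.10, edgeR adjusted p = 0.0035), both held in all 13 alternatives. Skp2, a subunit of another ubiquitin ligase for FOXO1, was at 9.75 and 13.5 in control, 8.73 and 8.92 in PQ, and 15.1 and 14.8 in NAC, and PQ lay below NAC by -0.71 (SE 0.13, edgeR adjusted p = 3.5e-04). None of the further calls against control held in all 13 alternatives. In PQ these were Ywhag (0.28), a 14-3-3 gene, Prmt1 (-0.28), an arginine methyltransferase gene, and Skp2 (-0.40). Skp2 was -0.18 without control library 2 (edgeR adjusted p = 0.43, from 0.0023 to 0.43 over the alternatives). Ywhag was lost without control library 2 (0.24), PQ library 1 (0.27) or PQ library 2 (0.29) and with the labelled protocol as a covariate (0.28). Prmt1 was lost with that covariate (-0.28) and without control library 1 (-0.26), control library 2 (-0.29), PQ library 1 (-0.25), PQ library 2 (-0.30), NAC library 1 (-0.27) or NAC library 2 (-0.28). Skp2 was also lost without PQ library 1 (-0.39), PQ library 2 (-0.41), NAC library 1 (-0.40) or NAC library 2 (-0.40). Prmt1 and Skp2 were lost as well with only the 4 libraries compared and with either limma fit, and Skp2 with DESeq2. In NAC they were Sirt1 (0.48), a deacetylase gene, Stk3 (-0.47), a stress kinase gene, Ywhag (-0.33) and Ywhaz (-0.33). With the labelled protocol as a covariate, Sirt1 (0.49) and Ywhag (-0.31) lost their calls. Sirt1 was also lost without control library 2 (0.33) or NAC library 1 (0.33), Stk3 without control library 1 (-0.32) or NAC library 2 (-0.38), Ywhag without control library 1 (-0.30) or NAC library 1 (-0.29), and Ywhaz without control library 2 (-0.27) or NAC library 2 (-0.26). Ywhag and Ywhaz lost their calls in NAC also with either limma fit, and Sirt1 with DESeq2. Set against NAC, PQ was higher in Mdm2 (1.11) and Ywhag (0.61) and lower in Skp2 in all 13 alternatives. The other 4 calls were Stk3 (0.44), lost without PQ library 2 (0.37) or NAC library 2 (0.36), Ywhaz (0.37), lost without NAC library 2 (0.29), Sirt1 (-0.63), lost without PQ library 1 (-0.52) or NAC library 1 (-0.49), and the acetyltransferase gene Crebbp (-0.37), lost without PQ library 1 (-0.38), PQ library 2 (-0.35) or NAC library 2 (-0.27). The counts of Mdm2 were fractional in all 6 libraries and those of Ywhag in 5. Sfn, which encodes 14-3-3 sigma, had at most 6 counts.

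Proliferation genes were lower in PQ. All 10 genes of the list were lower in PQ than in control and lower than in NAC by edgeR, with median log2 fold changes of -0.68 and -0.74. The largest changes against control were in Mki67 (-1.13), Aurkb (-0.96), Mcm2 (-0.86) and Ccna2 (-0.82), genes of mitosis and DNA replication, and these calls held in all 13 alternatives. The summed FPKM of the list was 927 and 947 in control, 566 and 609 in PQ, and 1080 and 1010 in NAC. In NAC against control, 0 of 10 were called by edgeR, 3 had an unadjusted p under 0.05, and DESeq2 and limma also called 0. Ccng2, Cdkn1a and Btg1, which are tied to arrest, did not share a direction in the libraries with lower proliferation genes, and the part of the cell cycle in the values of the FOXO targets was not tested.

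In centred log2 CPM, where CPM scales counts by library total, patterns over the 6 libraries were compared for 11716 genes. The genes closest to each factor except Foxo6, which was not run, were found by the root mean square difference. They were Tfam, Noa1 and Anapc5 for Foxo1, at 0.023 to 0.025, where Foxo1 itself varied by 0.18 on the same measure. For Foxo3 they were Vwa1, Lrp10 and Klhl25, at 0.034 to 0.047 against 0.24. For Foxo4 they were Megf6, Vash1 and Ddr1, at 0.021 to 0.053 against 0.30. None of the 6 targets was among them.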

How the data were processed

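RNA-seq libraries of control, PQ and NAC cultures were grouped by their labels, 2 per group. The authors deposited, for each library, expected counts and FPKM keyed by NCBI gene identifier. The submitters' processing notes name TopHat2 2.0.11 and Cufflinks 2.1.1 on mm9 for 2 libraries, and HISAT2 2.0.4, Bowtie2 2.2.5 and RSEM on mm10 for 4, although all 6 tables have columns of the kind RSEM writes. The 4 libraries were labelled BGISEQ-500 with TRIZOL extraction, the other 2 Illumina with a column kit. The deposited FPKM had been scaled by transcript length and library total.

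Gene symbols were assigned through the NCBI annotation of GRCm38.p6 for 99.7% of 17254 genes. A gene left out of a table was taken as 0. Expected counts were rounded and tested with edgeR 4.0.16 in R 4.3.3 (TMM, glmQLFit and glmQLFTest, all 6 libraries, no covariate) for 11717 genes whose FPKM averaged 1 or more, adjusted by Benjamini-Hochberg over these genes, with 0.05 as threshold. Members under the filter were read from a fit of all 17209 genes with a count. Standard errors were the log2 fold change divided by the root of F. Fits were tested on simulated counts. Counts of libraries in a group differed by more than counting noise, with a chi-square per degree of freedom of 4.11 to 6.91, so none was taken for a file deposited again. This does not tell separate cultures from repeated libraries, and the control and PQ pairs also differ in labelled protocol. A gene that never exceeded 3 counts was called undetectable at these depths. Alternatives were DESeq2 size factors, no filter, the labelled protocol as a covariate, only the 4 libraries compared, each library left out, DESeq2 1.42.0, limma 3.58.1 on log2(FPKM + 1) and log2(FPKM + 0.1), and differences within a labelled protocol. The within-protocol differences that involve NAC, and the alternatives for Foxo6, were added after seeing the data.

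The members and lists were chosen with earlier results of these data known. Named were all members, and from each wider list at most 4 called genes per comparison and direction by size of the log2 fold change. The 3 genes closest to Foxo1, to Foxo3 and to Foxo4 were named as well. Some genes that this rule selects are not named in the text. Abundance leaders and undetected genes of a list are named besides. Promoter sequences are from RefSeq.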

Additional observations from a re-analysis of the deposited data

How the results depend on the processing

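Over the 3 comparisons, the log2 fold changes of the 10 members were refitted in 387 combinations of comparison and alternative, of which 336 kept their direction and their side of the threshold, 38 lost the call and 4 gained it. The remaining 9 changed sign, none of them from a call, and the cause was not tested. These were Sesn3 in PQ against control (0.18 without control library 2, 0.03 without PQ library 1, 0.03 with either limma fit), Foxo4 in PQ against control (-0.01 without PQ library 1), Foxo3 in NAC against control (0.01 without control library 2), Bcl2l11 in NAC against control (-0.01 with the labelled protocol as a covariate, -0.10 without control library 1) and Foxo6 in PQ against NAC (-0.41 without NAC library 1). Over the single libraries left out, these log2 fold changes ranged from -0.17 to 0.18, -0.01 to 0.21, -0.36 to 0.01, -0.10 to 0.25 and -0.41 to 0.68 in that order. Leaving out 1 library moved the counts most. The genes called ranged from 866 to 2206 in PQ against control, from 1286 to 2126 in NAC against control and from 2343 to 4207 in PQ against NAC. The members called ranged from 0 to 3, from 1 to 4 and from 2 to 5 in the same order. The 0 was reached without PQ library 1, and the 1 without NAC library 2. A group left with 1 library was assumed to vary like the others. Under the other alternatives the counts of genes and of members called stayed within 1.5 times of those reported. Of 93 calls of genes named by the rule in the wider lists, 54 held under all alternatives, 39 were lost under at least 1 and 0 changed sign. No paired analysis was possible because the labels carry no shared replicate numbers, apart from the fit with the labelled protocol as a covariate, which blocks control and PQ by protocol, with 1 library of each in either protocol. Counts of the wider lists that moved by more than 1.5 times are given in the report. Foxo6, at 9 to 30 counts, is limited by depth.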
